A study of Caenorhabditis elegans with 8 samples.

Results

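Genes of the nucleolus and of RNA polymerase I were followed in whole Caenorhabditis elegans adults. They were 5 named genes, rpoa-1, rpoa-2, fib-1, dao-5 and ncl-1, of 18287 genes with counts in both replicates. The rule that names them uses no threshold on measured values, but they were chosen with earlier results of these data known. All 5 passed the filter on low counts, which left 15843 genes for the tests. The worms were mir-83 mutants of strain MT15501, which carry a mutation of the microRNA gene mir-83, and wild-type worms of strain N2. Both were collected at adult day 12 and at adult day 4, and every group was kept on FuDR, which prevents live offspring. The 4 groups were mir-83 day 12, N2 day 12, mir-83 day 4 and N2 day 4, with 2 libraries each. The mutant is a single strain, so its other background differences from N2 cannot be told apart from the mutation. RNA came from whole worms, where fewer cells of a type and less RNA per cell cannot be told apart.

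The nucleolus is the part of the nucleus where RNA polymerase I transcribes the ribosomal RNA genes and where the transcript is modified, cut and assembled with ribosomal proteins. In worms a small nucleolus has been linked to long life, and loss of ncl-1 enlarges nucleoli. RPOA-1 and RPOA-2 are the largest subunits of RNA polymerase I and together form its catalytic centre. FIB-1 is fibrillarin, the enzyme that methylates ribosomal RNA at sites chosen by box C/D guide RNAs. DAO-5 is the worm relative of the vertebrate nucleolar phosphoprotein NOPP140, and its gene was named for high expression in dauer larvae or ageing adults. NCL-1 is a protein of the TRIM-NHL class, related to fly Brat, and it restrains nucleolar size and fibrillarin production.

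The members lie on 4 chromosomes of WBcel235, the assembly that ce11 names. The gene rpoa-1 (WBGene00012999) lies at II:13670626-13694795 on the minus strand, with 5687 exonic bases, and rpoa-2 (WBGene00008781) at I:9280923-9286576 on the minus strand, with 3784. The gene fib-1 (WBGene00001423) lies at V:15000651-15002223 on the minus strand with 1375 exonic bases, and dao-5 (WBGene00000931) at I:10187546-10190896 on the minus strand with 3158. The gene ncl-1 (WBGene00003559) lies at III:7719729-7738105 on the plus strand, with 4805. It shares 102 exonic bases with a protein-coding gene on the opposite strand, WBGene00022661, and dao-5 shares 10 with rsa-1. The sources used here do not say whether counting used strand, so reads from those bases cannot be assigned.

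Libraries held 20.3 to 41.2 M counted reads. The replicate numbers stand in separate count tables built on different annotations, and in replicate 1 the labels give each age its own run code, so age and run cannot be told apart there. The labels do not tell whether the 2 libraries of a group stem from separate cultures. The p-values thus speak only of the spread between these libraries, part or all of which may be technical. Levels are given as CPM, counts per M reads scaled with TMM factors, which correct for differences in RNA composition. Those factors were 0.644 and 0.596 in the mir-83 day 4 libraries and between 1.08 and 1.23 in the others. Without them the median log2 change over all genes was -0.99 in mir-83 against N2 at day 4, against -0.14 with them, and 1.01 in day 12 against day 4 mir-83 worms, against 0.05 with them. Each change is therefore also given relative to the median gene. The choice of scaling moved these values by at most a few hundredths, which follows from the arithmetic, since subtracting the median is itself a scaling. It takes the median gene as unchanged, so these values are no check on the choice of scaling. The mir-83 day 12 libraries correlated at only 0.894 across genes, replicate 1 best with N2 day 12 replicate 1 (0.975) and replicate 2 best with N2 day 4 replicate 2 (0.952).

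The 5 genes followed different courses over strain and age. In replicate 1 and replicate 2, rpoa-1 stood at 39.6 and 41.6 CPM in mir-83 day 12 worms, 121 and 72.9 CPM in N2 day 12 worms, 55.64 and 55.96 CPM in mir-83 day 4 worms and 27.3 and 20.2 CPM in N2 day 4 worms. No pair of groups overlapped, with N2 day 12 highest and N2 day 4 lowest. The other large subunit, rpoa-2, stood at 101 and 71.8 CPM in mir-83 day 12 worms, 123 and 104 CPM in N2 day 12 worms, 23.6 and 26.3 CPM in mir-83 day 4 worms and 38.6 and 49.8 CPM in N2 day 4 worms. Every day 12 library was above every day 4 library, and the lowest group was mir-83 day 4. The fibrillarin gene fib-1 stood at 368 and 550 CPM in mir-83 day 12 worms, 830 and 676 CPM in N2 day 12 worms, 1308 and 1392 CPM in mir-83 day 4 worms and 523 and 467 CPM in N2 day 4 worms. The mir-83 day 4 libraries were the highest, and mir-83 day 12 overlapped N2 day 4. That top rank depends on the scaling. Without TMM factors fib-1 was at 842.3 and 830.1 CPM in mir-83 day 4 worms and 959.9 and 831.6 CPM in N2 day 12 worms.

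The nucleolar phosphoprotein gene dao-5 stood at 131 and 218 CPM in mir-83 day 12 worms, 285 and 286 CPM in N2 day 12 worms, 138 and 184 CPM in mir-83 day 4 worms and 110 and 165 CPM in N2 day 4 worms. N2 day 12 lay above all other libraries, and the remaining groups overlapped in CPM. The regulator gene ncl-1 stood at 113 and 40.7 CPM in mir-83 day 12 worms, 183 and 41.9 CPM in N2 day 12 worms, 310 and 91.5 CPM in mir-83 day 4 worms and 77.6 and 18.3 CPM in N2 day 4 worms. Its replicate 1 value was 2.78 to 4.37 times its replicate 2 value in every group. The first table counts ncl-1 on 1 line and the second on 8 transcript lines, so its absolute level is uncertain and it is compared within a replicate. There mir-83 day 4 was highest and N2 day 4 lowest both times. Without TMM factors the replicate 1 value of ncl-1 was 211.5 CPM in N2 day 12 worms and 199.7 CPM in mir-83 day 4 worms, so its top rank depends on the scaling. Per kilobase of exon, levels were 334 to 982 CPM for fib-1, 43.5 to 90.3 for dao-5, 9.98 to 41.8 for ncl-1, 6.59 to 30.0 for rpoa-2 and 4.18 to 17.1 for rpoa-1, as group means.

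**Figure D1:**
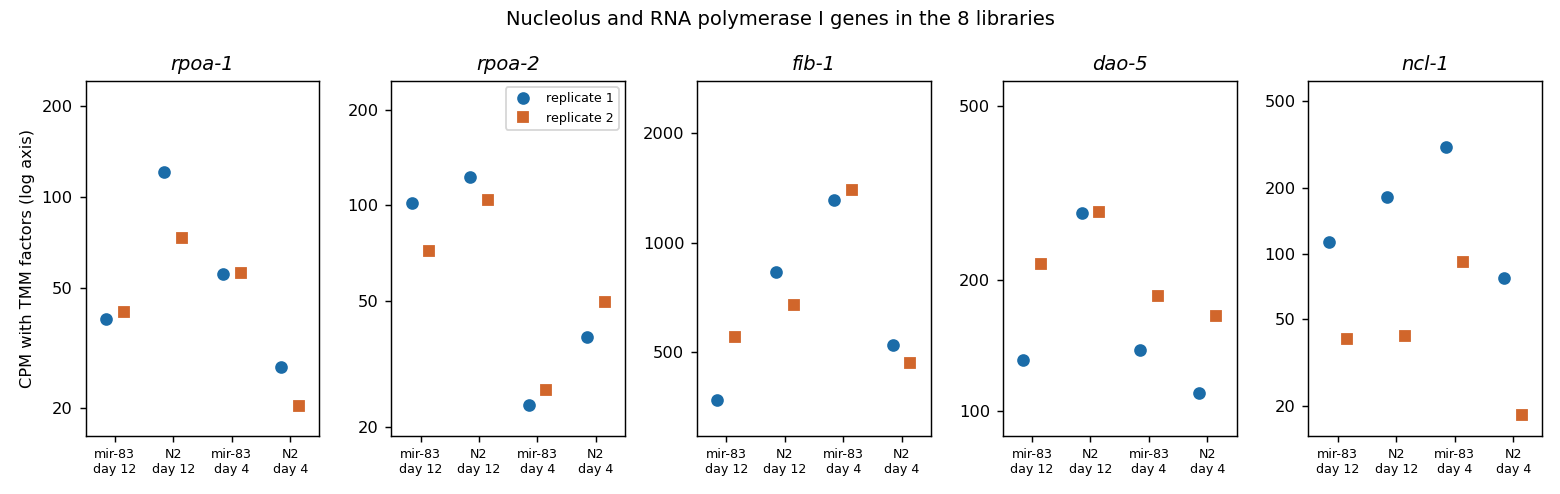
Level of each gene in the 8 libraries, in CPM with TMM factors on a log axis, by group; circles are replicate 1 and squares replicate 2. The rpoa-2 points at day 12 lie above those at day 4 in both strains, while the fib-1 and ncl-1 points of a replicate are highest in mir-83 day 4 worms. Without TMM factors the replicate 1 values of fib-1 and ncl-1 were highest in N2 day 12 worms.

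Ordered by level after each table's mean was removed on the log2 scale, rpoa-1 ran N2 day 12, mir-83 day 4, mir-83 day 12, N2 day 4, with each step larger than the SD of either neighbour. For rpoa-2 the order was N2 day 12, mir-83 day 12, N2 day 4, mir-83 day 4, again with each step beyond those SDs. For fib-1 it was mir-83 day 4, N2 day 12, N2 day 4, mir-83 day 12, and the last step of 0.14 was within the SD of 0.37. For dao-5 it was N2 day 12, mir-83 day 12, mir-83 day 4, N2 day 4, and the middle step of 0.09 was within the SD of 0.21. For ncl-1 it was mir-83 day 4, N2 day 12, mir-83 day 12, N2 day 4, each step beyond the SD. N2 day 4 was the lowest group for rpoa-1, dao-5 and ncl-1. These orders hold with TMM factors. Without them dao-5 was at 89 and 109.6 CPM in mir-83 day 4 worms and 127.5 and 177.7 CPM in N2 day 4 worms. For rpoa-1 the values were then 35.8 and 33.4 CPM in mir-83 day 4 worms and 47.5 and 50.6 CPM in mir-83 day 12 worms.

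The first comparison asked how mir-83 mutants differ from N2 at day 4. Of the 5 genes 3 rose and none fell at an adjusted p under 0.05 in edgeR's quasi-likelihood test, beside 7.05% of all genes tested called in either direction (4.42% higher and 2.63% lower). The largest of these changes was in ncl-1, whose log2 fold change was 2.16 ± 0.27 (SE, adjusted p = 0.0211), a 4.46-fold higher level, and both replicates showed it (2.00 and 2.32). The fibrillarin gene fib-1 was 2.73-fold higher (log2 1.45 ± 0.29, adjusted p = 0.0311), with 1.32 and 1.58 in the replicates. The catalytic subunit gene rpoa-1 was 2.38-fold higher (1.25 ± 0.30, adjusted p = 0.0452), with 1.02 and 1.46.

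The partner subunit gene rpoa-2 had a log2 fold change of -0.83 ± 0.29 (95% interval -1.48 to -0.17, adjusted p = 0.113), lower in both replicates, so the values of the 2 catalytic subunit genes had opposite signs. For dao-5 the value was 0.24 ± 0.26 (-0.35 to 0.83, adjusted p = 0.585). Relative to the median gene the values were 2.30 for ncl-1, 1.59 for fib-1, 1.39 for rpoa-1, 0.38 for dao-5 and -0.69 for rpoa-2. With plain library sizes ncl-1 remained past the threshold (1.30, adjusted p = 0.00998), rpoa-1 (0.39) and fib-1 (0.59) did not, rpoa-2 did (-1.68, adjusted p = 0.0063) and dao-5 changed sign (-0.61), beside 25.4% of all genes called under that scaling. Without either N2 day 4 library, or without either mir-83 day 4 library, none of the 5 was called, with adjusted p of 0.0554 to 0.179 for ncl-1. Without the replicate block none was called either (adjusted p = 0.233 for ncl-1, 0.0586 for fib-1 and 0.0839 for rpoa-1). Without N2 day 12 replicate 1 or 2, rpoa-1 was not past the threshold (adjusted p = 0.0726 and 0.0613).

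**Figure D2:**
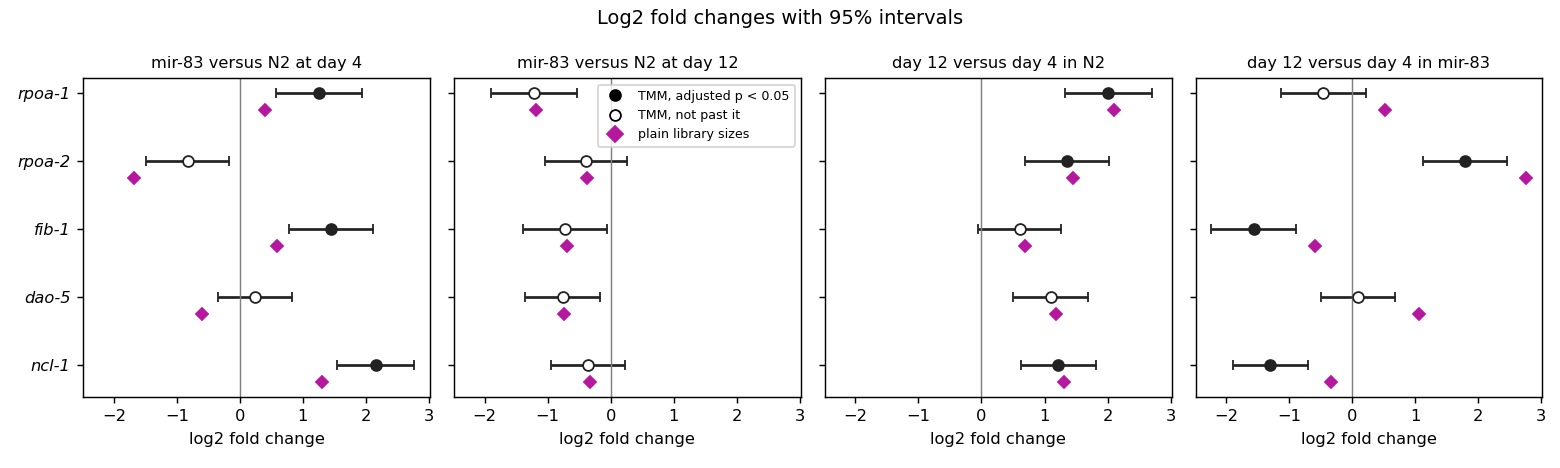
Log2 fold changes of the 5 genes in 4 comparisons; circles are the fit with TMM factors, filled where the adjusted p was under 0.05, bars are 95% intervals, and diamonds are the values with plain library sizes. In the day 4 comparison rpoa-2 lies left of 0 while rpoa-1, fib-1 and ncl-1 lie right of it, and plain library sizes move all 5 to the left.

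Ratios of reads within a library need no scaling between libraries. The rpoa-1 to rpoa-2 ratio was 2.36 and 2.13 in mir-83 day 4 worms, against 0.709 and 0.406 in N2 day 4 worms. At day 12 it was 0.390 and 0.579 in mir-83 worms, against 0.983 and 0.701 in N2 worms. Thus mir-83 day 4 was the only group in which rpoa-1 had more reads than its partner, and the strains did not overlap at either age. The fib-1 to rpoa-2 ratio was 55.6 and 52.9 in mir-83 day 4 worms, against 13.6 and 9.37 in N2 day 4 worms, and it was 3.63 and 7.66 in mir-83 day 12 worms, against 6.74 and 6.49 in N2 day 12 worms. The fib-1 to nol-56 ratio, between genes for 2 proteins of the same box C/D particle, was 2.08 and 2.00 in mir-83 day 4 worms, against 3.07 and 2.23 in N2 day 4 worms. At day 12 it was 1.06 and 2.68 in mir-83 worms, against 2.69 and 1.88 in N2 worms, so the strains overlapped there. With 2 libraries a group, an exact two-sided permutation test cannot give a p below 0.333, so these ratios are given as values.

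**Figure D3:**
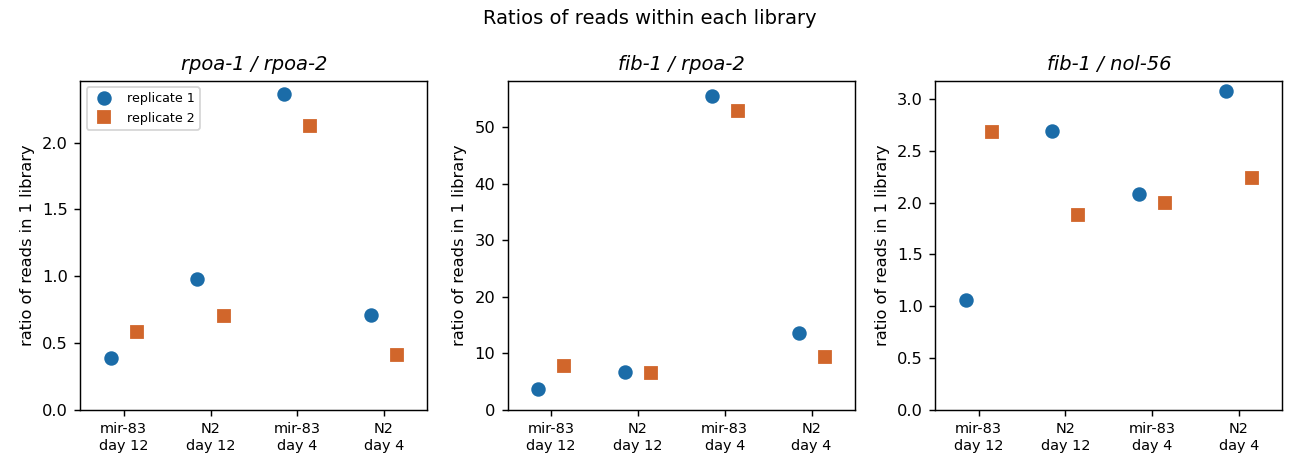
Ratio of reads of 2 genes within each library, by group, with circles for replicate 1 and squares for replicate 2 and each axis starting at 0. The mir-83 day 4 points for rpoa-1 to rpoa-2 lie at 2.36 and 2.13, all other libraries below 1, while fib-1 to nol-56 has no such gap.

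The rest of the pathway at day 4 was read from lists of genes. Of 5 other subunits and factors of RNA polymerase I none rose and 1 fell, rpac-19, a subunit shared with RNA polymerase III (39.3 ± 3.97 CPM in mir-83 worms and 84.2 ± 5.77 CPM in N2 worms, SD, n = 2 each, log2 -1.102 ± 0.239, adjusted p = 0.0372). The median of the 5 was -0.55, against -0.14 over all genes. The rpoa-1 to rpac-19 ratio was 1.53 and 1.33 in mir-83 day 4 worms, against 0.341 and 0.229 in N2 day 4 worms. The list of 12 RNA polymerase II subunits includes 5 shared with the other polymerases. None of these 12 and none of 4 RNA polymerase III subunits was called by edgeR, with medians of -0.20 and -0.18. With plain library sizes 4 of the 5 other RNA polymerase I genes, 8 of the RNA polymerase II subunits and 2 of the RNA polymerase III subunits fell, and none rose.

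Of 4 genes on the small nucleolar ribonucleoprotein list, nol-56, for the scaffold protein beside fibrillarin, rose (log2 1.80 ± 0.32, edgeR adjusted p = 0.0261). It stood at 662 ± 48.6 CPM in mir-83 worms and 190 ± 27.6 CPM in N2 worms (SD, n = 2 each). The list includes gar-1, which in worms encodes an acetylcholine receptor and no nucleolar protein (10 to 83 reads a library). The H/ACA pseudouridine synthase gene dkc-1 was at 0.38 ± 0.24 (adjusted p = 0.349). Of 37 tested genes for ribosomal RNA processing and ribosome assembly, 2 rose and none fell. They were the helicase gene ddx-10 (1.57) and eif-6 (1.41), a factor that keeps large subunits from joining small ones early. The list median was -0.32, and with plain library sizes 1 rose and 23 fell. Of 76 cytosolic ribosomal protein genes 35 rose and none fell, with a median of 1.18, which became 8 and 1 with plain library sizes.

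Among the relatives of ncl-1, lin-41 rose (176 ± 37.8 CPM in mir-83 worms and 62.7 ± 25.6 CPM in N2 worms, SD, n = 2 each, log2 1.54), 1 of 4 tested. Of 10 regulators of ribosome production only mdl-1, a Mad-like transcription factor, rose (1.86), with a median of 0.05 for the list. Neither lin-41 nor mdl-1 was called with plain library sizes, and 5 regulators fell. Without any one of the 4 day 4 libraries, the calls for ribosomal proteins, assembly genes, nol-56, lin-41, mdl-1 and rpac-19 all went to 0, and that of rpac-19 also without either N2 day 12 library. Without mir-83 day 12 replicate 1 or 2, more ribosomal protein and assembly genes were called higher. The share of all genes called in those fits is not given here. Without the replicate block ribosomal proteins gave 1, beside 321 of 15843 genes called, and neither lin-41 nor rpac-19 was called.

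Summed levels of tissue markers also differed between the strains at day 4. The summed level of 11 oocyte and eggshell markers was 34210 and 36520 CPM in mir-83 day 4 worms, against 12140 and 10740 CPM in N2 day 4 worms (1 of 11 rose). Germline markers summed to 3352 and 3029 CPM in mir-83 worms, against 1665 and 1504 CPM in N2 worms (4 of 10 rose), and muscle markers to 3455 and 3167 CPM, against 471 and 733 CPM in N2 worms (5 of 7 rose). Intestine markers summed to 39370 and 51220 CPM in mir-83 worms, against 7907 and 7125 CPM in N2 worms (5 of 8 rose). That sum was made up mostly of the yolk protein gene vit-2. The log2 changes of the 8 intestine markers ran from 0.09 to 2.58, with a median of 1.60. Embryo markers summed to 1.59 and 2.20 CPM in mir-83 worms, against 26.4 and 26.6 CPM in N2 worms (4 of 8 fell), with 2 and 1 of 8 markers at 0 in the mir-83 libraries and none in N2. Neuron markers summed to 1088 and 695 CPM in mir-83 worms, against 537 and 370 CPM in N2 worms (2 of 8 rose). Hypodermis and cuticle markers summed to 7003 and 8840 CPM in mir-83 worms, against 393 and 1636 CPM in N2 worms, a sum made up mostly of the collagen genes col-140 and col-19. None of the 7 was called, and 4 of 7 had values above 0. Sperm markers summed to 8.69 and 9.18 CPM in mir-83 worms, against 24.1 and 6.23 CPM in N2 worms, with 0 of 6 called. The germline sums with plain library sizes were 2158 and 1806 in mir-83 worms, against 1935 and 1620 in N2 worms, and 1 of 10 germline markers rose and 4 fell. Under that scaling 2 of 8 intestine, 4 of 7 muscle and 1 of 11 oocyte markers rose, 2 neuron markers rose and 1 fell, and 6 embryo markers and 1 hypodermis marker fell. The part of these tissues in the results for the 5 genes was not tested.

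The second comparison set mir-83 against N2 at day 12. All 5 genes were lower in mir-83, and none was past the threshold, where edgeR called 0 of 15843 genes (0% called, 306 at an unadjusted p under 0.05) and DESeq2 4. The gene rpoa-1 had a log2 fold change of -1.22 ± 0.30 (95% interval -1.90 to -0.54, adjusted p = 0.9996 in edgeR) and ranked 10 by p over all genes. For dao-5 it was -0.76 ± 0.26 (-1.36 to -0.17), for fib-1 -0.72 ± 0.29 (-1.39 to -0.06), for rpoa-2 -0.39 ± 0.28 (-1.04 to 0.25) and for ncl-1 -0.36 ± 0.25 (-0.95 to 0.22), and the adjusted p of each was 0.9996. Relative to the median gene the values were -1.19 for rpoa-1, -0.74 for dao-5, -0.69 for fib-1, -0.36 for rpoa-2 and -0.33 for ncl-1.

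The replicates differed in size at day 12. In replicate 1 the changes were -1.61 for rpoa-1, -1.17 for fib-1, -1.12 for dao-5, -0.69 for ncl-1 and -0.28 for rpoa-2. In replicate 2 they were -0.81 for rpoa-1, -0.30 for fib-1, -0.39 for dao-5, -0.04 for ncl-1 and -0.54 for rpoa-2. All 10 values were negative, and rpoa-2 alone was lower in replicate 2 than in replicate 1. Without mir-83 day 12 replicate 1 or 2 in turn, none was called either. No gene of the other lists, tissue markers included, was called by edgeR at day 12, and the medians were 0.06 for other RNA polymerase I genes, -0.17 for ribosome assembly and 0.04 for ribosomal proteins.

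The third comparison followed ageing in N2. By day 12, 3 of the 5 genes rose and none fell, beside 4.51% of all genes called (2.11% higher and 2.40% lower). The RNA polymerase I subunit gene rpoa-1 was 4.04-fold higher at day 12 (log2 2.01 ± 0.30, adjusted p = 0.0252), and rpoa-2 was 2.56-fold higher (1.36 ± 0.29, adjusted p = 0.0413). The repressor gene ncl-1 was 2.33-fold higher (1.22 ± 0.26, adjusted p = 0.0413). The change in dao-5 was 1.098 ± 0.261 (0.50 to 1.70, adjusted p = 0.0553), and that in fib-1 0.61 ± 0.29 (-0.05 to 1.27, adjusted p = 0.204). All 5 were higher at day 12 in both replicates, and the values relative to the median gene were 2.11, 1.45, 1.31, 1.19 and 0.70 for rpoa-1, rpoa-2, ncl-1, dao-5 and fib-1.

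The calls for N2 ageing rested on few libraries. Without any single N2 library, or any single mir-83 day 4 library, none of the 5 was called, with adjusted p of 0.0557 to 0.168 for rpoa-1. Without the replicate block only rpoa-1 was called, with adjusted p of 0.0593 for rpoa-2 and 0.443 for ncl-1. DESeq2 called 4 of the 5, dao-5 included (adjusted p = 0.0084), beside 20.6% of all genes. In the lists, 8 of 37 ribosome assembly genes rose at day 12 in N2 and none fell, with 36 of 37 above 0 and a median of 1.01, against -0.09 over all genes. They included let-716 (1.78), utp-20 (1.67), tsr-1 (1.62) and toe-1 (1.60). That count rose without either mir-83 day 12 library and fell without any other single library. The share of all genes called in those fits is not given here. Without the replicate block the count of assembly genes was 1, beside 136 of 15843 genes called. With plain library sizes it was 18, beside 947 of 15843.

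Of the other RNA polymerase I genes none was called in ageing N2, and the initiation factor gene tif-1A had 0.97 ± 0.25 (adjusted p = 0.0634). The largest subunits of the other polymerases rose, ama-1 of RNA polymerase II (2.51) and rpc-1 of RNA polymerase III (1.16), and so did rpb-2 (1.41). Among relatives of ncl-1, lin-41 (1.81) and nhl-2 (1.74) rose, and the TOR kinase gene let-363 rose (1.54). None of these calls stood without any single N2 library or any single mir-83 day 4 library. Ribosomal protein genes had a median of -0.43, with 0 of 76 called by edgeR. The small nucleolar ribonucleoprotein list, with the receptor gene gar-1 on it, had none of 4 called. Of the tissue markers, 4 of 8 intestine markers and 1 of 7 muscle markers fell with age in N2 and 2 of 10 germline markers rose (3, 1 and 5 with plain library sizes), and germline markers summed to 3844 and 2468 CPM at day 12, against 1665 and 1504 CPM at day 4. Their part in the changes of the 5 genes was not tested.

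The fourth comparison followed ageing in mir-83 mutants. Of the 5 genes 1 rose by day 12 and 2 fell, beside 27.9% of all genes called (12.8% higher and 15.2% lower). The subunit gene rpoa-2 was 3.46-fold higher at day 12 (log2 1.79 ± 0.29, adjusted p = 0.00602). The level of fib-1 fell by 1.56 ± 0.29 on the log2 scale (adjusted p = 0.00916), and that of ncl-1 fell by 1.30 ± 0.26 (adjusted p = 0.0109). The change in rpoa-1 was -0.46 ± 0.29 (-1.13 to 0.21, adjusted p = 0.257), and that in dao-5 0.09 ± 0.26 (-0.50 to 0.68, adjusted p = 0.804).

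Relative to the median gene these were 1.74 for rpoa-2, -1.61 for fib-1, -1.35 for ncl-1, -0.51 for rpoa-1 and 0.04 for dao-5. With plain library sizes rpoa-1 turned to 0.51, fib-1 (-0.59, adjusted p = 0.109) and ncl-1 (-0.33, adjusted p = 0.273) were not past the threshold, and dao-5 rose (1.06, adjusted p = 0.00873), beside 43.5% of all genes called. Without mir-83 day 4 replicate 1 none of the 5 was called, and without replicate 2 only rpoa-2 was. Without the replicate block ncl-1 was not past the threshold (adjusted p = 0.289). Without mir-83 day 12 replicate 1 or 2 in turn the number called stayed at 3, and dao-5 turned to -0.11 without replicate 2.

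In the mir-83 lists, ribosome assembly and ribosomal protein genes moved in opposite directions with age. Of 37 assembly genes 22 rose and 2 fell (ddx-10, -0.93, and eif-6, -1.47), with a median of 1.00, and with plain library sizes 30 rose and none fell. The largest rises were in utp-20 (2.02), let-716 (1.97), grwd-1 (1.89) and ngp-1 (1.64). Of 76 ribosomal protein genes 1 rose and 66 fell, with a median of -1.49, and with plain library sizes 2 rose and 27 fell. Among other RNA polymerase I genes tif-1A (400 ± 91.6 CPM at day 12 and 143 ± 12.2 CPM at day 4, SD, n = 2 each, log2 1.47) and rpac-19 (1.23) rose, 2 of 5. With plain library sizes all 5 rose, beside 6889 of 15843 genes called. With DESeq2 4 rose, beside 6358 of 15843 genes called. The fibrillarin partner gene nol-56 fell by 1.27 on the log2 scale, a call that ended with plain library sizes, without either mir-83 day 4 library and without mir-83 day 12 replicate 2. Assembly genes gave 0 higher without mir-83 day 4 replicate 1, 3 without replicate 2 and 6 without mir-83 day 12 replicate 1. Ribosomal proteins gave 16 and 26 lower without mir-83 day 4 replicate 1 and 2, and neither tif-1A nor rpac-19 was called without either of these.

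Genes of the remaining lists were also called in ageing mir-83 worms. Of 9 exosome genes, which encode the complex that trims ribosomal RNA precursors, 3 rose and none fell, led by the helicase gene mtr-4 (2.02). Of 4 RNA polymerase III genes rpc-1 (1.41) and rpc-2 (1.26) rose, and of 12 RNA polymerase II genes rpb-2 (1.34) and rpb-9 (1.13) rose and rpb-11 fell by 0.95. Of 10 regulators let-363 (1.57) and daf-15 (1.38), both of the TOR complex, rose and 3 fell, among them mdl-1 (-3.17) and mxl-3 (-3.04), and the ncl-1 relative nhl-1 fell (-1.82). Without mir-83 day 4 replicate 1 the only call left among these lists was 1 regulator that fell, and nhl-1 lost its call without any one of the 4 mir-83 libraries. With plain library sizes 8 of 9 exosome, 8 of 12 RNA polymerase II, 4 of 4 RNA polymerase III and 6 of 10 regulator genes rose, and 2 regulators fell. Of 4 relatives of ncl-1, 2 rose and 0 fell under that scaling, where nhl-1 had -0.85 (edgeR adjusted p = 0.234). All 7 muscle, all 8 intestine, 6 of 11 oocyte and 3 of 8 neuron markers fell and 6 of 8 embryo markers rose. Of 10 germline markers 2 rose and 3 fell, 3 of 7 hypodermis markers fell, and 0 of 6 sperm markers were called by edgeR. Under plain library sizes 6 germline markers rose and none fell, 1 oocyte marker rose and 1 fell, 1 neuron marker rose and 2 fell, 6 muscle, 5 intestine and 2 hypodermis markers fell, and 7 embryo and 2 sperm markers rose. With TMM factors muscle markers summed to 98.8 and 231 CPM at day 12, against 3455 and 3167 CPM at day 4. Their part in the results was not tested.

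**Figure D4:**
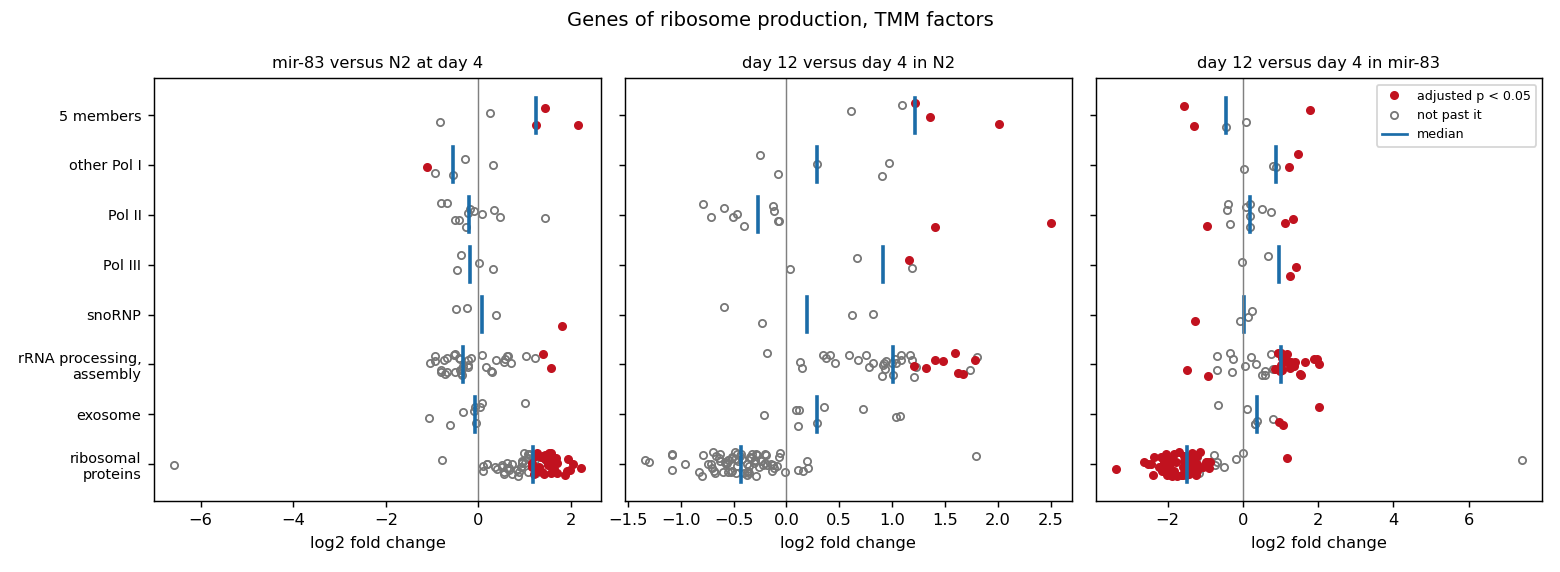
Log2 fold changes, with TMM factors, of each tested gene of 8 lists in 3 comparisons. Filled points had an edgeR adjusted p under 0.05, and vertical bars are list medians. The row of small nucleolar ribonucleoproteins includes the receptor gene gar-1. Most ribosomal protein genes lie right of 0 at day 4 and left of it in ageing mir-83 worms (medians 1.18 and -1.49), and 36 of 37 assembly genes in ageing N2 and 30 of 37 in ageing mir-83 worms lie right of 0 (medians 1.01 and 1.00); the single point far from the ribosomal proteins is rpl-42, with 0 reads in both mir-83 day 4 libraries.

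The last comparison was the difference of the strain effect between the ages. It was -2.52 ± 0.36 for ncl-1 (adjusted p = 0.0549), -2.47 ± 0.42 for rpoa-1 (adjusted p = 0.0584), -2.17 ± 0.41 for fib-1 (adjusted p = 0.0606), -1.01 ± 0.37 for dao-5 (adjusted p = 0.194) and 0.43 ± 0.40 for rpoa-2 (adjusted p = 0.628). None was past the threshold, where edgeR called 0% of genes, with 2911 at an unadjusted p under 0.05. The value of ncl-1, which ranked 27 by p, is the smallest adjusted p in this comparison and is shared with other genes. DESeq2 called 1332 genes (8.41%), among them ncl-1, rpoa-1 and fib-1. The edgeR test called these 3 without mir-83 day 12 replicate 2, and ncl-1 and rpoa-1 without replicate 1 or with plain library sizes (11% of genes called). Only rpoa-2 had a difference above 0, and its interval reached from -0.48 to 1.35. Relative to the median gene the differences were -2.60 for ncl-1, -2.56 for rpoa-1, -2.25 for fib-1, -1.09 for dao-5 and 0.35 for rpoa-2.

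Over the 8 libraries, with each table's mean removed, the levels of fib-1 and ncl-1 had r = 0.89 and those of rpoa-1 and dao-5 r = 0.89, as a description, since groups share strains and ages. The subunit genes rpoa-1 and rpoa-2 had r = 0.36, and rpoa-2 and fib-1 r = -0.57. The genes with the most similar pattern among 8270 candidates were sart-3 (0.998), dpy-26 (0.997) and hcp-6 (0.995) for rpoa-2, set-9, glh-2 and rbm-28 (all 0.98) for rpoa-1, atln-1, eat-17 and snx-14 (all 0.99) for fib-1, laf-1 (0.99), gei-6 (0.98) and acin-1 (0.98) for dao-5, and sad-1 (0.99), dyn-1 (0.98) and rnp-8 (0.98) for ncl-1. The highest of these values belonged to rpoa-2, and rbm-28 is itself on the ribosome assembly list.

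Reads of a gene were spread over its transcripts differently in the 2 tables. The minor rpoa-1 transcript held 5.11% to 9.54% of the gene's reads in replicate 1 and 2.74% to 4.32% in replicate 2. The major dao-5 line held 52.7% to 60.1% in replicate 1 and 64.8% to 67.0% in replicate 2. In replicate 1 the 2 fib-1 lines were near equal in every group.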

How the data were processed

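Libraries were made from Trizol-extracted total RNA of whole worms, per the labels' protocols. Values are raw counts of reads for each transcript as deposited, with 1 table per replicate number. Bowtie2, edgeR and the build ce11 are named in the submitters' processing notes, without versions. The sources used here do not tell how reads were split over isoforms. Lines were matched to WormBase genes of WBcel235 (30443 in the first table, 215 unmatched with 0.0908% of reads, and 29023 in the second, 276 unmatched with 0.242%) and summed per gene. All 5 members matched. No sequence was printed.

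Counts were filtered with filterByExpr, normalised by TMM and tested with edgeR 4.0.16 (R 4.3.3, quasi-likelihood F-test). The model covered the 8 libraries together, gave every group its mean, took the replicate number as a block, and left 3 residual degrees of freedom. The number pairs libraries because each table has its own annotation, and libraries of one number deviated from their groups together (r of 0.118 to 0.415 across genes, over pairs of groups). Two-sided p-values were adjusted by the Benjamini-Hochberg method over 15843 genes in each of 5 comparisons, with a threshold of 0.05. The common biological coefficient of variation was 0.429. Alternatives were RLE factors, plain library sizes, no filter, no block, a fit on the compared libraries alone, leaving out each library, and DESeq2 1.42.0. All 5 members are named in every comparison. Named list genes are up to 4 past the threshold with the largest change, otherwise abundant ones. The members and lists were chosen with earlier results of these data known. Listed genes in only 1 table were not analysed here.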

Additional observations from a re-analysis of the deposited data

Results flagged for a closer look

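The strain effect had opposite signs at the ages, in both replicates of each, for 4 genes, and the difference at day 12 minus day 4 was -2.52 for ncl-1, -2.47 for rpoa-1, -2.17 for fib-1 and -1.01 for dao-5. In rpoa-1, fib-1 and ncl-1 the change with age also had opposite signs in mir-83 and N2 worms, which is the same difference read the other way (-2.47, -2.17 and -2.52). The edgeR test of the difference gave adjusted p of 0.0549 for ncl-1, 0.0584 for rpoa-1, 0.0606 for fib-1 and 0.194 for dao-5. With plain library sizes the strain effect of dao-5 was negative at day 4 as well (-0.61), and the ageing change of rpoa-1 in mir-83 worms was positive (0.51), so those opposite signs do not stand under that scaling.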

How the results depend on the processing

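Of the 5 genes, 3 were called at day 4, 0 at day 12, 3 in ageing N2, 3 in ageing mir-83 and 0 for the difference between ages. Without the replicate block the counts became 0 at day 4 and 1 in ageing N2 (rpoa-1), with ncl-1 at adjusted p of 0.233 and 0.443, and rpoa-1 and fib-1 at 0.0839 and 0.0586 at day 4; the block changed no other count by more than 1.5 times, though ncl-1 lost its call in ageing mir-83 (adjusted p = 0.289). For the difference between ages, DESeq2 gave 3 (beside 8.41% of all genes), plain library sizes 2 (beside 11%) and no filter 3. In ageing N2, dao-5 was called by DESeq2 (adjusted p = 0.0084, beside 20.6% of all genes). It was also called with plain library sizes (0.0323, beside 947 of 15843 genes) and without the filter (0.0441). Without either mir-83 day 12 library its log2 change was 1.09. With only the libraries compared, rpoa-2 was also called at day 4 (adjusted p = 0.0161). The share of all genes called is not given here for the fits without the filter or with only the libraries compared, so a generally looser fit cannot be told apart. Without single libraries the counts ranged from 0 to 3 at day 4, 0 at day 12 throughout, 0 to 4 in ageing N2, 0 to 3 in ageing mir-83 and 0 to 3 for the difference, where a group left with 1 library is assumed to vary like the others. Values that turned sign were dao-5 at day 4 (-0.61) and rpoa-1 in ageing mir-83 (0.51) with plain library sizes, and dao-5 in ageing mir-83 (-0.11) without mir-83 day 12 replicate 2, where leaving out single libraries gave -0.11 to 0.29. Over the 5 genes, 5 comparisons and all alternatives, 274 values kept direction and side of the threshold, 47 lost the call, 21 gained it and 3 turned sign. The 274 include results called in neither fit, so they do not measure how well the calls held. The cause of the shifts was not tested.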

Other observations

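Reads on ribosomal RNA genes, the product of RNA polymerase I, entered no test because each locus stood in 1 table only. In the table of replicate 2, a set of 4 such loci held 0.008% of reads in mir-83 day 12 worms, 0.0344% in N2 day 12 worms, 0.637% in mir-83 day 4 worms and 0.0247% in N2 day 4 worms. In the table of replicate 1, rrn-3.56, annotated as a ribosomal RNA pseudogene, held 0.0627% in mir-83 day 12 worms, 0.190% in N2 day 12 worms, 0.708% in mir-83 day 4 worms and 0.107% in N2 day 4 worms. In both tables mir-83 day 4 was the highest group and mir-83 day 12 the lowest. The sources used here do not say how ribosomal RNA was removed before sequencing, so these shares are no measure of its synthesis.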
